A study of Mus musculus with 14 samples.

Results

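The epidermal growth factor (EGF) receptor family was followed in mouse mammary gland epithelial cells as 10 genes, chosen by name from the 23284 genes listed for each library. The 4 receptors were Egfr, Erbb2, Erbb3 and Erbb4, and the 6 ligands were Areg (amphiregulin), Ereg (epiregulin), Hbegf (heparin-binding EGF-like growth factor), Tgfa (transforming growth factor α), Btc (betacellulin) and Epgn (epigen). RNA-seq was available for 14 libraries. EpH4 cells, an established line, and EpRas cells, their H-Ras-transformed derivative, were each left untreated or treated with TGF-β3 (1 ng/ml, 48 h), with 2 libraries for each of these 4 groups and no siRNA. A further 6 libraries came from EpRas cells transfected with control siRNA (siNC) or with pair 1 or pair 2 of siRNAs against the ETS family transcription factors Etv4 and Etv5, each without and with TGF-β, with 1 library per condition. EpH4 cells were cultured in 10% and EpRas cells in 4% fetal bovine serum, so the line and the serum cannot be told apart in any comparison between them, and each line stands for 1 cell population. The study describes the 2 libraries of a group as biological replicates. The p-values given here rest on the spread between such libraries, taken over all groups in a fit and shared in part across genes. They do not measure the spread of the compared groups alone.

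The 4 receptors are tyrosine kinases that act as pairs. EGFR and ErbB4 bind ligands and signal, ErbB2 binds no known ligand and is the preferred partner of the others, and ErbB3 has little kinase activity of its own but recruits phosphoinositide 3-kinase and binds neuregulins. The 6 ligands are made as membrane-anchored precursors that metalloproteases release: amphiregulin, epigen and TGF-α bind EGFR, while HB-EGF, betacellulin and epiregulin bind both EGFR and ErbB4. Amphiregulin is known for its part in the growth of mammary ducts at puberty, and signalling by these receptors runs through Ras and ERK, which itself can raise the transcription of several of the ligands.

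Expression was given as FPKM, fragments scaled to exon length and to the size of the library. The tables hold no read totals. The smallest steps between low FPKM placed the depth of the untransfected libraries between 0.609 and 1.36 times that of the first untreated EpH4 library, and that of the siRNA libraries between 1.26 and 2.201 times. The same steps gave whole numbers of reads in each of the 14 libraries for 8 of the 10 genes, within a tolerance of 0.02 reads. These numbers ranged from 374 to 1406 reads for Erbb2, 34 to 280 for Erbb3, 238 to 1972 for Hbegf, 66 to 587 for Areg, 170 to 1046 for Tgfa, 30 to 579 for Ereg, 1 to 60 for Btc and 0 to 8 for Epgn. No step was found for Egfr, whose FPKM sums several isoforms, and Erbb4 was listed at 0. Of the 10 epithelial markers checked, 8 or 9 reached 5 FPKM in each group, and their sum was 2489 FPKM or more in each untransfected library. The 8 stromal markers summed to between 8.42 and 247 FPKM there, with Col1a1 up to 223.5 and Pdgfrb up to 8.24 FPKM and Thy1 and Lum at 0. The leukocyte markers summed to between 1.96 and 8.49 FPKM, with Cd68 up to 7.13 and Csf1r up to 6.23 FPKM and Ptprc at 0. These sums are given beside the comparisons with which they move.

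The members are spread over 6 chromosomes of the mouse genome (mm10), except that 4 of the 6 ligands form a cluster on chromosome 5. Epgn (91027517 to 91035212), Ereg (91074617 to 91093649), Areg (91139615 to 91148432) and Btc (91357261 to 91402994) lie there in this order within 375 kb, and the only other gene listed in the interval, Gm19619, stayed below 0.12 FPKM in each library. Egfr (16752203 to 16913907) and Erbb2 (98412484 to 98438988) are on chromosome 11, Erbb3 is on chromosome 10 (128569368 to 128589501), Erbb4 on chromosome 1 (68039966 to 69108059) and Tgfa on chromosome 6 (86195251 to 86275449).

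Promoters are shown for 3 of the 5 genes that were below siNC with both siRNA pairs, without as well as with TGF-β, since Etv4 and Etv5 bind DNA with the ETS core GGAA. Each sequence runs from 250 bases before to 50 bases after the gene start (RefSeq, GRCm38.p6), 5′ to 3′ on the strand of the gene, with each GGAA and its complement TTCC in capitals. The regions are chr11:16751953-16752252 (plus strand) for Egfr, chr5:91139349-91139648 (plus strand) for Areg and chr5:91402945-91403244 (minus strand) for Btc.
Egfr: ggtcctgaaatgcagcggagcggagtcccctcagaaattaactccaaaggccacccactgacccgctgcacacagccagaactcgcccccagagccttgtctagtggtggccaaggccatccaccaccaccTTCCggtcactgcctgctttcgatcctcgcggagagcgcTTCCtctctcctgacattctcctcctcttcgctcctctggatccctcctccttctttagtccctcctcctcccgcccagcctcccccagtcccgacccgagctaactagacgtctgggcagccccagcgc
Areg: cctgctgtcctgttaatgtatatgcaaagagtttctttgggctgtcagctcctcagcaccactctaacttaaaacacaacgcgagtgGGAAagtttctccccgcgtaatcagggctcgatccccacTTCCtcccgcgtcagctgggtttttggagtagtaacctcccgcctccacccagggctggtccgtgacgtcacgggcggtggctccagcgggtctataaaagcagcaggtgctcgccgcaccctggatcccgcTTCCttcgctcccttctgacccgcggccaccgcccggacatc
Btc: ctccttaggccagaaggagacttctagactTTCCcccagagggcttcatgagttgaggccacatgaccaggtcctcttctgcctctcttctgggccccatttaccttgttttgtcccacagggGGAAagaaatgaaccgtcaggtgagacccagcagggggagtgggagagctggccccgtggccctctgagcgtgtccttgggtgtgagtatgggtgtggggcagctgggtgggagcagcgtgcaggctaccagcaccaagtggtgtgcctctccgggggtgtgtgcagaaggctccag
Egfr holds 2 cores, whose first bases lie 119 and 80 bases before the start, and the first is part of TTCCGG, the complement of CCGGAA. Areg holds 3, at 163 and 124 bases before and at base 9 after the start, and Btc holds 2, at 220 and 127 bases before it. Of the 32851 promoters of this length in the table, 96.0% held GGAA on either strand at least once, 84.6% at least 2 times and 66.3% at least 3 times, and 14.9% held CCGGAA on either strand, a motif that contains GGAA. The windows were matched for 7 of the 10 genes, and a match in such a window is a description, not a binding site. For comparison, the windows of Erbb2 and Tgfa held 3 and 2 cores.

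Hbegf, on chromosome 18 (36504927 to 36515805), was the ligand whose level differed most between the groups. The untreated EpH4 libraries had 18.6 and 15.9 FPKM and those given TGF-β 50.4 and 53.8 FPKM, and the untreated EpRas libraries had 42.0 and 31.5 FPKM and those given TGF-β 119.7 and 156.6 FPKM. No 2 groups overlapped, and the means ran from 17.3 ± 1.95 (SD, n = 2) in untreated EpH4 to 138 ± 26.1 FPKM (SD, n = 2) in EpRas cells with TGF-β. A single pair of groups was apart for 39.4 to 63.0% of the 9100 genes tested below, depending on the pair compared. The share of genes with all 4 groups apart was not computed. In these bulk samples, fewer cells that express a gene and less RNA per cell cannot be told apart. Areg had 25.3 and 27.4 FPKM in untreated EpH4 and 18.5 and 23.6 FPKM in untreated EpRas cells, and reached 35.0 and 31.6 FPKM with TGF-β in EpH4 and 53.7 and 55.3 FPKM with TGF-β in EpRas cells. Without TGF-β the EpRas libraries thus lay below the EpH4 libraries, and with it they lay above them. Tgfa had 22.3 and 23.0 FPKM in EpH4 cells and 22.6 and 20.6 FPKM after TGF-β, against 11.8 and 10.7 FPKM in EpRas cells and 13.1 and 14.1 FPKM after TGF-β, so that the lines were apart and the treatment groups of EpH4 overlapped. Ereg was low throughout, with 2.64 and 2.58 FPKM in EpH4 cells and 1.80 and 1.73 FPKM after TGF-β, and 3.69 and 4.74 FPKM in EpRas cells and 5.30 and 4.02 FPKM after TGF-β.

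The remaining 2 ligands stayed under 5 FPKM in every library. Btc was highest in untreated EpH4 cells, at 1.66 and 1.46 FPKM (26 and 31 reads), and had 0.617 and 0.415 FPKM (7 reads in each library) after TGF-β. In EpRas cells it had 0.627 and 0.0562 FPKM (6 and 1 reads) untreated and 0.816 and 0.477 FPKM (11 and 5 reads) after TGF-β, so that the untreated EpH4 libraries lay above the other 6. Epgn had 4 reads in each untreated EpH4 library (0.453 and 0.334 FPKM) and 0 to 3 reads in each of the other untransfected libraries. A library with 0 reads allows up to 3, which for Epgn corresponds to 0.471 FPKM in the first TGF-β-treated EpH4 library, 0.558 FPKM in the first untreated EpRas library and 0.510 FPKM in the second TGF-β-treated EpRas library, so no difference in Epgn was detectable at this depth. These limits cover counting error only.

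Erbb2 was the most abundant receptor mRNA in each library. It was 24.9 and 36.8 FPKM in untreated EpH4 cells, 30.7 and 31.4 FPKM with TGF-β, 22.7 and 19.7 FPKM in untreated EpRas cells and 16.6 and 19.9 FPKM with TGF-β, and made up 67.0 to 74.5% of the summed receptor FPKM of the untransfected libraries. Egfr was 7.13 and 6.77 FPKM in untreated EpH4 cells, 7.04 and 6.98 FPKM with TGF-β, 4.48 and 4.12 FPKM in untreated EpRas cells and 4.94 and 5.01 FPKM with TGF-β. Erbb3 was 5.13 and 7.56 FPKM in untreated EpH4 cells, 5.07 and 5.15 FPKM with TGF-β, 3.29 and 3.46 FPKM in untreated EpRas cells and 1.77 and 3.01 FPKM with TGF-β. For each of the 3 receptors the 4 EpH4 libraries lay above the 4 EpRas libraries. The share of all genes with such a separation of 4 from 4 libraries was not computed. By the looser measure of 2 against 2 libraries, in either direction, 61.0% of the 9100 genes tested below did not overlap between the lines without TGF-β and 63.0% with it. Egfr and Erbb3 overlapped each other in untreated EpH4 cells, and Egfr was above Erbb3 in both libraries of each of the other 3 untransfected groups. Erbb4 was listed at 0 in all 14 libraries. An exact 0 in these tables can also be a failed estimate, so no limit is given for it.

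**Figure D1:**
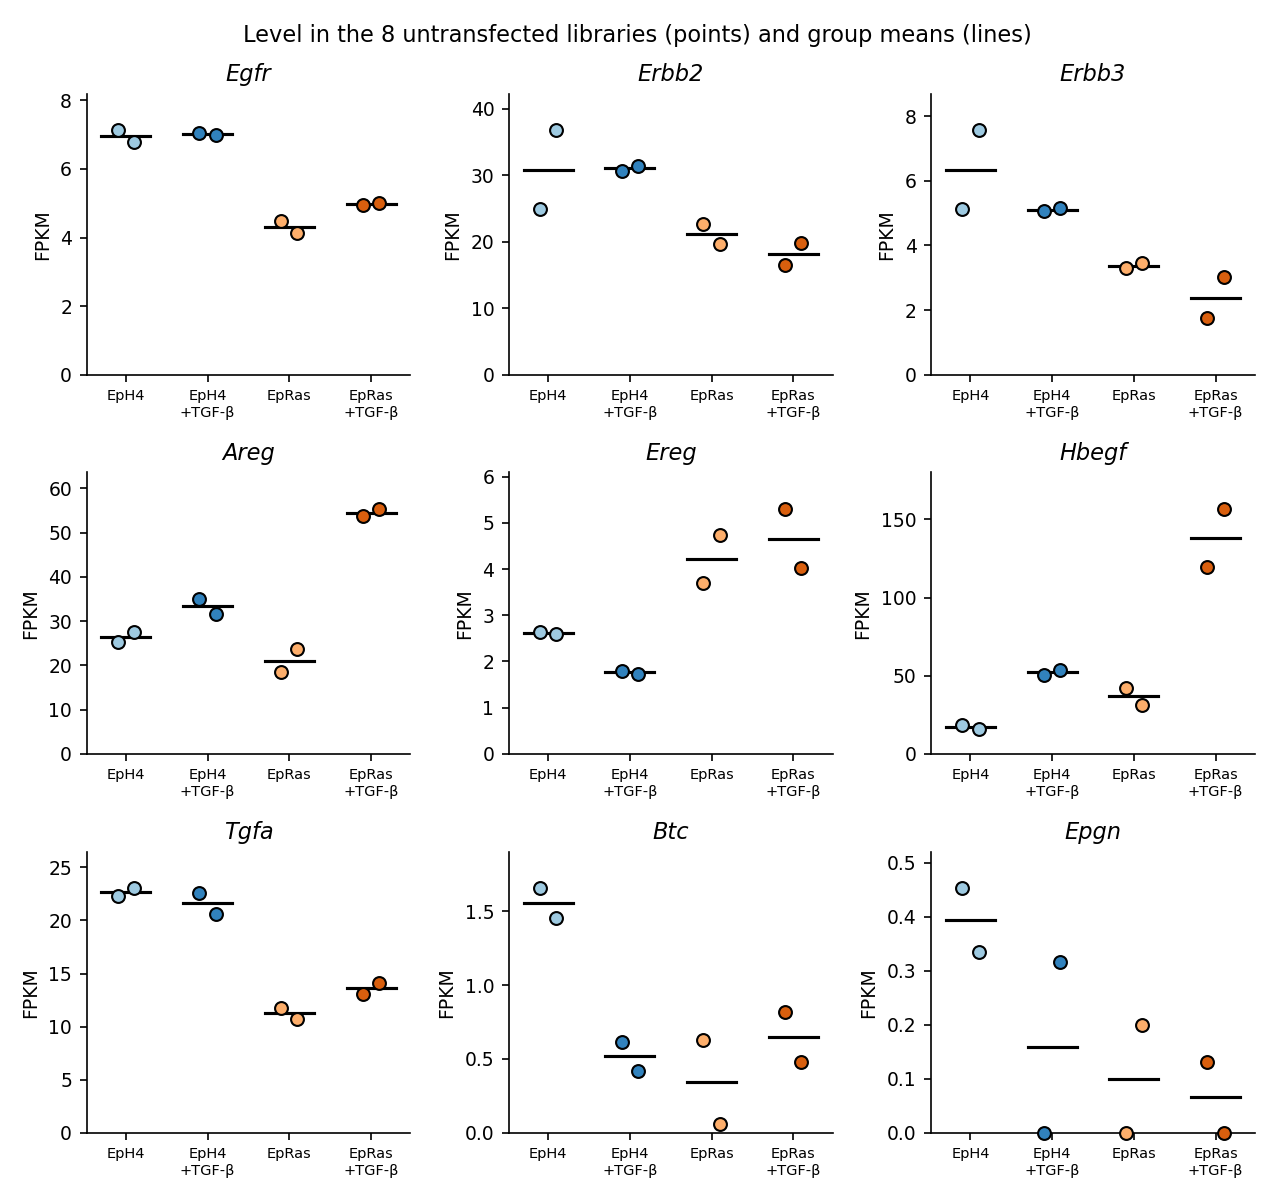
Expression level (FPKM, linear axis from 0) of the 9 members not listed at 0 throughout, in each of the 8 untransfected libraries (points) with the mean of each group of 2 (lines). Hbegf and Areg were highest in EpRas cells with TGF-β (138.1 and 54.5 FPKM by their means), while Tgfa, Egfr, Erbb2 and Erbb3 were lower in the EpRas than in the EpH4 libraries.

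The makeup of the ligand mRNA differed between the groups. Summed over the 6 ligands, the level was 70.9 and 70.7 FPKM in untreated EpH4 cells and 76.7 and 70.9 FPKM in untreated EpRas cells, and with TGF-β 110.4 and 108.6 FPKM in EpH4 and 192.7 and 230.5 FPKM in EpRas cells. The untreated lines thus had nearly the same sum with a different composition. In untreated EpH4 cells Areg held 35.6 and 38.8% of the sum, Tgfa 31.4 and 32.6% and Hbegf 26.3 and 22.5%, whereas in untreated EpRas cells Hbegf held 54.9 and 44.5%, Areg 24.1 and 33.4% and Tgfa 15.4 and 15.2%. With TGF-β, Hbegf held 45.6 and 49.6% in EpH4 cells and 62.1 and 67.9% in EpRas cells, and Tgfa held 6.78 and 6.13% in EpRas cells, where its own level was not below that of the untreated cells. Shares of a sum are not independent of each other and were not tested.

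**Figure D2:**
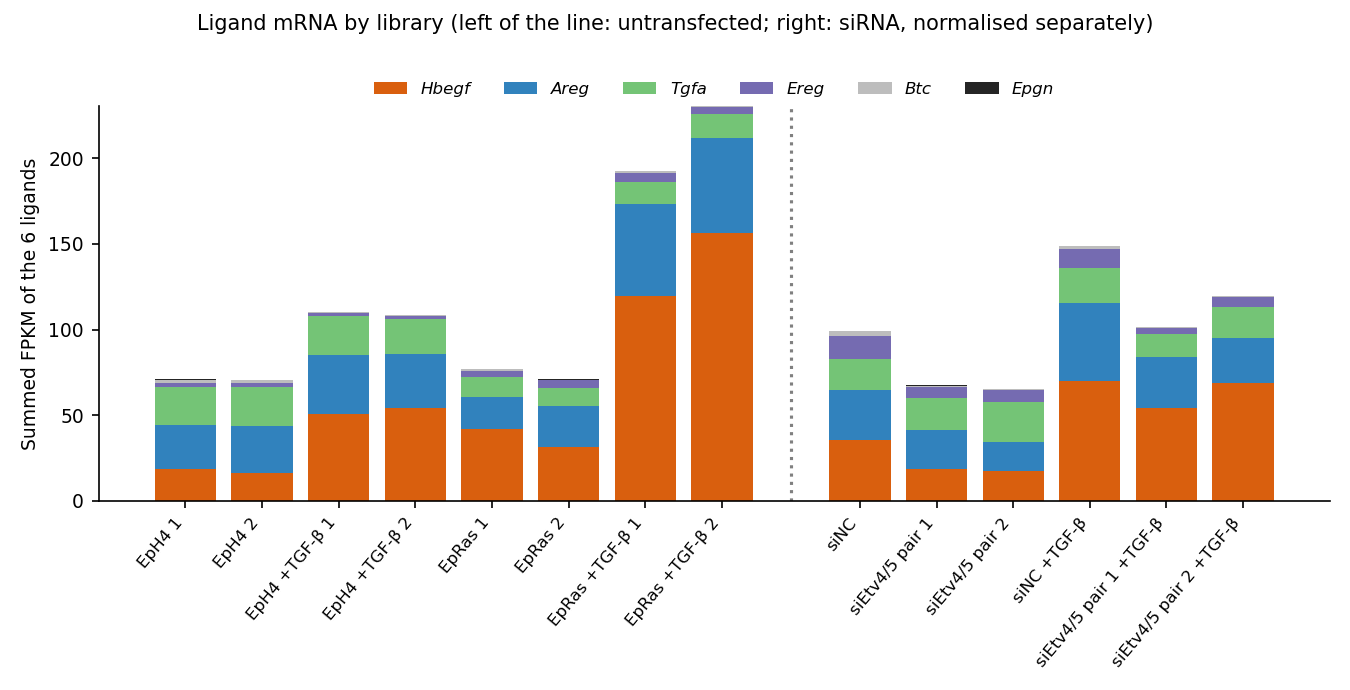
Summed FPKM of the 6 ligands in each of the 14 libraries, stacked by gene, with untransfected libraries to the left of the dotted line and siRNA libraries, which were normalised separately, to the right. The 2 TGF-β-treated EpRas libraries have the highest sums (192.7 and 230.5 FPKM), and Hbegf is the largest part of each of them.

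The first comparison asked how the family differs between the transformed and the parental line without TGF-β. Hbegf was higher in EpRas cells, and Tgfa and Egfr were lower. Differences were tested with limma on log2(FPKM + 1) over the 9100 genes with a highest untransfected library of 5 FPKM or more, with Benjamini-Hochberg adjustment over these genes. A log2 fold change from this test is on the log2(FPKM + 1) scale and understates changes of low genes. Of the 10 members 7 reached 5 FPKM, and Ereg did so through 1 TGF-β-treated EpRas library only, so that it could enter the test only by being high there. Erbb3 reached 5 FPKM in EpH4 libraries only, so that it could enter only by being high in that line. Between the lines, the fold changes of these 2 genes are therefore given as descriptions, with no p. Of the other 5 members tested, 1 was higher and 2 were lower at an adjusted p under 0.05, beside 17.6% of all genes tested (8.45% higher and 9.11% lower). By the means, Hbegf was 2.13-fold higher (log2 fold change 1.04 ± 0.21 (SE), limma adjusted p = 0.0146), Tgfa was 2.01-fold lower (-0.95 ± 0.14, limma adjusted p = 0.00505) and Egfr was 1.62-fold lower (-0.59 ± 0.14, limma adjusted p = 0.0263).

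Erbb2 (log2 fold change -0.50 ± 0.21, limma adjusted p = 0.153) and Areg (-0.32 ± 0.17, 0.236) did not pass, although the libraries of the lines did not overlap, as was the case for 61.0% of all genes tested. The log2 fold changes of Erbb3 and Ereg were -0.73 ± 0.23 and 0.52 ± 0.18. The call for Tgfa was kept with each library left out in turn. That for Hbegf was lost without the second untreated EpH4 or the first untreated EpRas library (adjusted p = 0.0888 and 0.0900), which left 1 member called. That for Egfr was lost without any 1 of the EpH4 or untreated EpRas libraries (adjusted p from 0.0678 to 0.116). In a fit without the filter on low genes, Btc was lower in EpRas cells as well (log2 fold change -0.96 ± 0.23, adjusted p = 0.0419), on 1 and 6 reads in EpRas against 26 and 31 in EpH4 cells. The summed epithelial markers lay between 4146 and 5233 FPKM in EpRas and between 5079 and 6436 FPKM in EpH4 cells. Among them Epcam (147 and 90.1 against 293 and 285 FPKM), Krt7, Krt14, Cdh1, Esrp1 and Cldn7 (57.3 and 61.8 against 191 and 208 FPKM) were lower in EpRas cells. Krt19 was higher (37.4 and 29.5 against 0 FPKM), and Krt8 and Krt18 overlapped. The summed stromal markers lay between 12.3 and 13.6 against 22.7 and 26.8 FPKM, and the leukocyte ones between 4.50 and 5.21 against 1.96 and 2.28 FPKM. Their part in these differences was not tested.

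The same comparison was made with TGF-β. The ligands Hbegf and Areg were higher in EpRas cells, and the receptor Erbb2 and the ligand Tgfa were lower. Of the 5 members whose entry into the test was not tied to a line, 2 were higher and 2 were lower, beside 21.3% of all genes tested (8.92% higher and 12.3% lower). By the means, Hbegf was 2.65-fold higher (log2 fold change 1.38 ± 0.21, limma adjusted p = 0.00363) and Areg 1.64-fold higher (0.69 ± 0.17, 0.0244). Erbb2 was 1.70-fold lower (-0.74 ± 0.21, limma adjusted p = 0.0459) and Tgfa 1.59-fold lower (-0.63 ± 0.14, 0.0199). As descriptions, Ereg had a 2.64-fold higher mean in EpRas cells (log2 fold change 1.02 ± 0.18) and Erbb3 a 2.14-fold lower one (-0.88 ± 0.23), in the directions that the filter favours. Egfr, with a log2 fold change of -0.42 ± 0.14, did not pass (limma adjusted p = 0.0669). The libraries of the 2 lines did not overlap for any of the 7, as for 63.0% of all genes tested. These calls rest on few libraries. Of the 4 calls, only that of Hbegf was kept without either EpH4 library with TGF-β and with the 2 groups fitted alone. Those of Areg and Erbb2 were lost without either EpRas library with TGF-β, and that of Erbb2 also without either untreated EpRas library. The summed epithelial markers lay between 2489 and 4156 FPKM in EpRas and between 8733 and 9237 FPKM in EpH4 cells, and the stromal ones between 8.42 and 11.1 against 222 and 247 FPKM. The leukocyte ones lay between 5.64 and 8.27 against 6.52 and 8.49 FPKM. Their part in these differences was not tested.

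TGF-β raised Hbegf in both lines, and Areg in EpRas cells. In EpH4 cells Hbegf rose 3.02-fold by the means (log2 fold change 1.54 ± 0.21, limma adjusted p = 0.00457) and was the only 1 of the 7 members tested that passed, beside 9.40% of all genes tested (6.48% higher and 2.91% lower). The call was lost without the second TGF-β-treated EpH4 library (0 members called, adjusted p = 0.0543), and kept without each of the other libraries. Areg was 1.26-fold higher by the means and its treated and untreated libraries did not overlap, as for 3 of the 7 members and 60.6% of all genes tested, but it did not pass (log2 fold change 0.33 ± 0.17, limma adjusted p = 0.289). Ereg was 1.48-fold lower (-0.39 ± 0.18, limma adjusted p = 0.236). None of the 3 receptors passed, at an unadjusted p under 0.05 either (0 of 3), and the log2 fold change of Egfr was 0.01, with a 95% interval from -0.31 to 0.33. Beside these results, the summed FPKM of the 8 stromal markers went from between 22.7 and 26.8 to between 222 and 247, most of it Col1a1, and that of the 10 epithelial markers from between 5079 and 6436 to between 8733 and 9237. Dcn, Lum and Thy1 were at 0 in all 4 of these libraries. The leukocyte markers went from between 1.96 and 2.28 to between 6.52 and 8.49 FPKM, most of it Csf1r (0.185 and 0.103 to 6.23 and 5.74 FPKM), with Ptprc at 0. The part of these markers in the change of Hbegf was not tested.

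In EpRas cells Hbegf rose 3.75-fold (log2 fold change 1.88 ± 0.21, limma adjusted p = 0.00347) and Areg 2.59-fold (1.34 ± 0.17, limma adjusted p = 0.00590), so that 2 of the 7 members tested passed, beside 3.82% of all genes tested (1.90% higher and 1.92% lower). Both calls were kept with each library left out in turn, and both were lost when these 2 groups were fitted alone (adjusted p = 0.0725 and 0.0967). Tgfa was 1.21-fold higher, with both treated above both untreated libraries (log2 fold change 0.25 ± 0.14, limma adjusted p = 0.465). Erbb3 was 1.41-fold lower, also without overlap (-0.39 ± 0.23, limma adjusted p = 0.477), while the libraries of Erbb2 and Ereg overlapped. The groups were thus apart for 5 of the 7 members, beside 39.4% of all genes tested. The summed epithelial markers lay between 2489 and 4156 FPKM in the treated and between 4146 and 5233 FPKM in the untreated libraries, and the stromal ones between 8.42 and 13.6 FPKM in all 4 libraries. The leukocyte ones lay between 5.64 and 8.27 against 4.50 and 5.21 FPKM, and the part of these markers in the changes of Hbegf and Areg was not tested.

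Whether TGF-β acted differently in the 2 lines was tested as the difference of its effects, EpRas minus EpH4. None of the 7 members passed (0 by limma, beside 0.802% of all genes tested, 0.176% higher and 0.626% lower), and 1, Areg, had an unadjusted p under 0.05. The difference for Areg was 1.01 ± 0.24 on the log2 scale (unadjusted p = 0.00328, limma adjusted p = 0.159, 95% interval 0.46 to 1.57). For Hbegf it was 0.34 ± 0.29 (limma adjusted p = 0.711, 95% interval -0.35 to 1.03), which leaves room for a larger response in either line. For Ereg, whose treated libraries were below the untreated ones in EpH4 cells and overlapped them in EpRas cells, it was 0.50 ± 0.25, given as a description because Ereg passed the filter through a library of this comparison. As the comparisons of the lines and of the treatment share libraries, their values for one gene are not independent of each other.

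**Figure D3:**
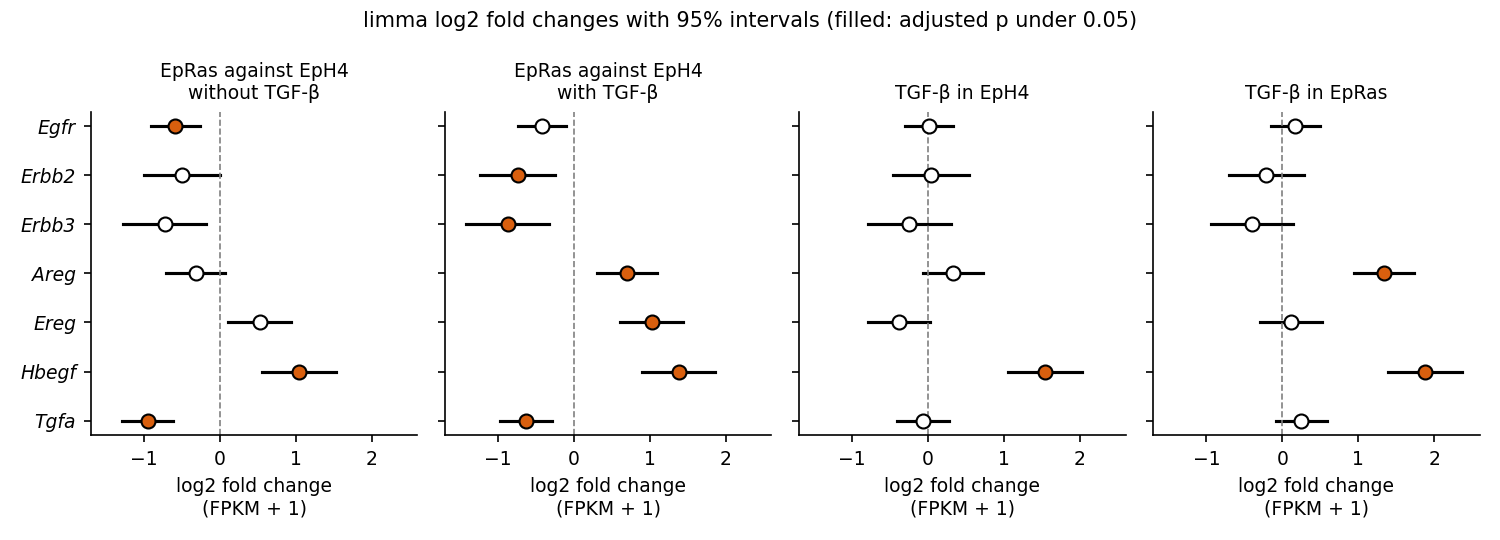
Log2 fold changes on the log2(FPKM + 1) scale of the 7 members tested (points) with 95% intervals (lines) from limma in 4 comparisons, filled where the adjusted p was under 0.05 (between the lines Ereg and Erbb3 are descriptions, as they passed the filter through 1 line). Hbegf is filled in each of the 4 panels, Areg in the comparison of the lines with TGF-β and in the effect of TGF-β in EpRas cells.

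Hbegf had the largest range of group means on the log2 scale, 2.92. Among the genes tested, the 3 most like it over the 8 untransfected libraries were Pvr (a cell adhesion receptor; Pearson r = 0.987), Gng11 (a G protein γ subunit; r = 0.985) and Rab10 (a small GTPase of membrane traffic; r = 0.983), each with n = 8 libraries in 4 groups that share their treatment and line. Gng11 had 5.36 and 3.16 FPKM in untreated EpH4 libraries and 179 and 212 FPKM in EpRas libraries with TGF-β, and Pvr 16.4 and 16.5 against 64.5 and 59.3 FPKM. These are descriptions of likeness, chosen for it.

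The rest of the pathway was counted in 5 lists. In the list of 9 genes that shed or retain the ligand precursors, 8 were tested, and without TGF-β 2 were higher and 3 lower in EpRas cells (62.5%, beside 17.6% of all genes tested). Timp3, an inhibitor of the sheddase ADAM17, was 73.8 and 81.7 FPKM in untreated EpH4 and 27.4 and 22.3 FPKM in untreated EpRas cells (log2 fold change -1.61, limma adjusted p = 0.000916), and in EpRas cells with TGF-β it was 12.1 and 10.8 FPKM. Adam9 was higher (0.87, 0.0185), while Rhbdf2, which carries ADAM17 to the cell surface, was lower (-0.74, 0.0180), as was the protease Bace1 (-0.66, 0.0203). With TGF-β 1 was higher and 4 were lower (62.5%, beside 21.3% of all genes tested), Timp3 by -2.66 (6.28e-05). The metalloprotease Adam12 rose with TGF-β in EpH4 cells (12.3 and 10.95 to 42.1 and 41.0 FPKM, adjusted p = 0.000514) and in EpRas cells (17.3 and 16.9 to 35.1 and 31.7 FPKM, adjusted p = 0.0157). In EpRas cells Timp3 (-1.05, limma adjusted p = 0.0166) and Bace1 (-1.06, 0.00863) fell with TGF-β. The difference of the TGF-β effects between the lines passed for 0 of the 8 genes by limma, beside 0.802% of all genes tested (3 of the 8 at an unadjusted p under 0.05). Adam10 and Adam17, which are also in this list, were called in no comparison, and shedding itself was not measured. The calls of Timp3 between the lines and of Adam12 in EpH4 cells were kept with each library left out. Without TGF-β the calls of Rhbdf2 and Bace1 were lost without any 1 of the 4 libraries compared, that of Bace1 also without either EpH4 library with TGF-β, and that of Adam9 without the second untreated library of either line, where of the 5 calls only that of Timp3 was kept. With TGF-β, 3 of the 5 calls were kept without either EpH4 or the first EpRas library with TGF-β. The calls in EpRas cells were lost without either untreated library (adjusted p from 0.0558 to 0.124 for Timp3, 0.0570 and 0.0789 for Bace1, 0.0995 and 0.104 for Adam12) and with the EpRas groups fitted alone (0.156, 0.128 and 0.154), and those of Timp3 and Adam12 also without either EpH4 library or 1 of the EpRas libraries with TGF-β.

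Among the 20 negative regulators and trafficking genes, of which 15 were tested, 2 were higher and 2 lower in EpRas cells without TGF-β and 2 were higher and 3 lower with it, which is 26.7 and 33.3% beside 17.6 and 21.3% of all genes tested. Without TGF-β, of these 4 calls (Spry1, Usp8, Cblc and Rin1) only that of Spry1 was kept without the second untreated library of either line, and those of Spry1 and Cblc without the first untreated EpRas library. With TGF-β, 3 of the 5 calls were kept without the second EpH4 library with TGF-β, where Spry1 and Eps15 were lost. Spry1, a Sprouty inhibitor of Ras-ERK signalling, had 53.0 and 53.1 FPKM in untreated EpH4 and 14.5 and 12.3 FPKM in untreated EpRas cells (log2 fold change -1.91, limma adjusted p = 0.000645), and in EpH4 cells TGF-β lowered it to 15.5 and 13.2 FPKM (-1.82, limma adjusted p = 0.00111). Errfi1 encodes MIG6, which binds and inhibits the EGFR kinase. It fell with TGF-β in EpH4 cells, from 27.3 and 23.2 to 14.3 and 15.7 FPKM (-0.71, limma adjusted p = 0.0464), and rose in EpRas cells, from 25.8 and 27.5 to 42.6 and 53.9 FPKM (0.83, 0.0490). It was the 1 gene of the 5 lists whose difference of the TGF-β effects passed (1.54 ± 0.25, limma adjusted p = 0.0472), beside 0.802% of all genes tested. This call was lost without any 1 of the 8 libraries (adjusted p from 0.0558 to 0.280), that in EpH4 cells without 6 of them (0.0825 to 0.285) and that in EpRas cells without 7 (0.0781 to 0.263), while the higher level of Errfi1 in EpRas than in EpH4 cells with TGF-β (1.62, 0.000762) was kept.

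In the list of 19 targets of EGF receptor and ERK signalling, of which 15 were tested, 4 were higher and 0 lower in EpRas cells without TGF-β (limma, median log2 fold change 0.28 beside -0.0031 over all genes), and 5 were higher and 0 lower with it (median 0.35 beside -0.0077). These shares are 26.7 and 33.3%, beside 17.6 and 21.3% of all genes called in either direction (8.45 and 8.92% higher, 9.11 and 12.3% lower). The dual-specificity phosphatase gene Dusp6 was 8.66 and 9.24 FPKM in untreated EpH4 and 19.9 and 24.0 FPKM in untreated EpRas cells (1.20, limma adjusted p = 0.00407), and with TGF-β it was 5.36 and 6.11 against 39.1 and 32.0 FPKM (2.44, 0.000108). Dusp4, Plaur and Dusp5 were the other 3 that were higher without TGF-β. The calls of Dusp4 and Dusp6 were kept with each library left out, while that of Plaur was lost without the first untreated library of either line (adjusted p = 0.0550 and 0.0620). That of Dusp5 was lost without 5 of the 8 libraries (0.0872 to 0.193), so that without the first untreated EpRas library 2 of the 4 calls were kept. With TGF-β the AP-1 gene Fosl1 had the largest change (3.46, limma adjusted p = 0.0263). It had 29.3 and 216.8 FPKM in EpRas against 5.18 and 7.80 FPKM in EpH4 cells. Its call was lost without the filter on low genes (limma adjusted p = 0.0577), with the compared groups fitted alone (0.0801) and without either EpH4 library with TGF-β. Of the 19 adaptors and signal relay genes, 18 were tested, and 0 were higher and 4 lower without TGF-β (22.2%, beside 17.6% of all genes tested, of which 9.11% lower). Of these, Pik3r1 reached 5 FPKM in the untreated EpH4 libraries only (6.24 and 6.85 FPKM), so that it could enter the test only by being high there. Its call is therefore a description, and as the 22.2% counts it, this share is not read against that of all genes. Among the 4 are Grb7, an adaptor of the ErbB receptors (-0.97, 0.0279, lost without any 1 of the EpH4 or untreated EpRas libraries, 0.0628 to 0.131), and Ptpn11, which encodes the phosphatase SHP2 (-0.89, 0.00674). Of the 4 calls only that of Ptpn11 was kept without any 1 of the EpH4 or untreated EpRas libraries. With TGF-β 1 was higher and 5 were lower (33.3%, beside 21.3%), and without the first or second EpH4 library with TGF-β 2 of these 6 calls were kept. Eps8, a substrate of the EGF receptor kinase, fell with TGF-β in EpH4 cells (44.5 and 45.05 to 10.1 and 9.33 FPKM, -2.10, 0.000357) and in EpRas cells (52.1 and 57.4 to 21.0 and 17.4 FPKM, -1.47, 0.00308, and 0.0716 with the EpRas groups fitted alone). Of the 5 other ligands (Egf and the neuregulins) only Nrg1, which binds ErbB3 and ErbB4, reached 5 FPKM. It was lower in EpRas cells with TGF-β, at 4.17 and 4.03 against 11.9 and 9.26 FPKM (-1.17, limma adjusted p = 0.00893, and 0.0827 without the first EpH4 library with TGF-β).

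The siRNA libraries were read for how the members stood beside siNC when Etv4 and Etv5 were reduced in EpRas cells. In the untreated siNC library Etv4 had 57.4 FPKM, and 20.2% (pair 1) and 48.5% (pair 2) of this level was left, while 18.3 and 14.2% was left of Etv5 (8.85 FPKM). Under TGF-β, 19.6 and 29.4% of Etv4 (64.3 FPKM) and 23.2 and 22.5% of Etv5 (5.34 FPKM) was left. With 1 library for each condition no test of the knockdown was made, and both pairs are read against the same siNC library. A gene was called where both pairs were at least 2-fold to the same side of siNC on the FPKM + 1 scale. The 95% interval of a ratio was taken from the reads by the exact binomial (Clopper-Pearson) method and leaves out the variation between cultures.

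Without TGF-β, Egfr was furthest below siNC among the 7 members that reached 5 FPKM. The siNC library had 12.4 FPKM, pair 1 had 5.08 and pair 2 had 3.21 FPKM, which is 41.0 and 25.8% of siNC (log2 differences -1.14 and -1.67). It was the 1 of these 7 members that was called, beside 2.49% of 9094 genes called lower and 1.54% called higher. No reads were recovered for Egfr, so its ratios have no counting interval. The Cuffdiff intervals of its levels were 5.58 to 19.2 FPKM with siNC, 1.85 to 8.31 with pair 1 and 0.809 to 5.60 with pair 2. Those of both pairs overlap that of siNC. They are of another kind than the intervals of the ratios given here. Hbegf, at 35.4, 18.7 and 17.1 FPKM, was 52.8% (interval of the ratio 0.464 to 0.600) and 48.4% (0.422 to 0.553) of siNC, and Ereg, at 13.4, 6.45 and 6.89 FPKM, was 48.0% (0.408 to 0.563) and 51.2% (0.436 to 0.601). Both lay close to the 2-fold limit without passing it in both pairs. Areg was 29.1, 22.4 and 16.9 FPKM, or 76.7% (0.633 to 0.929) and 57.9% (0.469 to 0.714) of siNC. Btc, under 5 FPKM, was 3.02, 0.593 and 0.593 FPKM (60, 16 and 15 reads), and thus 19.6% (0.106 to 0.345) and 19.7% (0.104 to 0.350) of siNC.

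The other receptors and Tgfa did not follow this pattern without TGF-β. Erbb2 was 18.5, 22.5 and 19.5 FPKM, Erbb3 was 5.29, 5.48 and 5.27 FPKM and Tgfa was 18.01, 18.9 and 23.7 FPKM with siNC, pair 1 and pair 2. The ratios for Erbb3 were 1.04 (0.836 to 1.29) and 0.996 (0.800 to 1.24). Of the 7 members, 4 were below siNC with both pairs and 2 above, beside 36.8% of all genes below with both pairs. Epgn had 0 reads with siNC, 8 with pair 1 and 2 with pair 2. The stromal markers summed to 5.50 FPKM under siNC, 25.7 under pair 1 and 16.6 under pair 2, and with TGF-β 11.7, 43.9 and 22.4 FPKM, with Thy1 and Lum at 0. The leukocyte markers summed to 7.43, 3.28 and 5.00 FPKM, and with TGF-β to 11.5, 5.56 and 6.99 FPKM. Their part in the differences from siNC was not tested. With the second pair left out the count of members called stayed at 1, with the first left out it was 2, with 5 FPKM added it was 0, and at a limit of 1.5-fold it was 3.

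With TGF-β, the 7 members were below siNC with both pairs (7 of 7, beside 35.0% of all genes), but 0 were called, beside 2.49% of genes called lower and 1.33% called higher. Ereg was 11.4, 3.42 and 5.67 FPKM, the lowest of the 7 relative to siNC with pair 1 but above Egfr and Erbb3 with pair 2 (30.1 and 49.8% of siNC; intervals of the ratio 0.248 to 0.363 and 0.423 to 0.585). Egfr was 12.4, 9.57 and 5.49 FPKM (77.5 and 44.4% of siNC), with pair 2 at a log2 difference of -1.04 and pair 1 at -0.34. Areg was 45.5, 29.8 and 26.6 FPKM (65.6 and 58.5%), and Erbb3 was 5.67, 4.09 and 2.57 FPKM (72.1 and 45.2%). Hbegf was 70.2, 54.3 and 68.5 FPKM (77.3 and 97.6%), so that its level with pair 2 was close to siNC. Tgfa was 20.1, 13.3 and 18.2 FPKM and Erbb2 was 22.1, 19.3 and 20.8 FPKM. Btc, under 5 FPKM, was 1.65, 0.438 and 0.611 FPKM (57, 12 and 15 reads), or 26.6 and 37.0% of siNC. Each pair alone past 2-fold gave 1 member, Ereg for pair 1 and Egfr for pair 2, as did the mean of the pairs (Ereg), and 1.5-fold in both pairs gave 2.

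**Figure D4:**
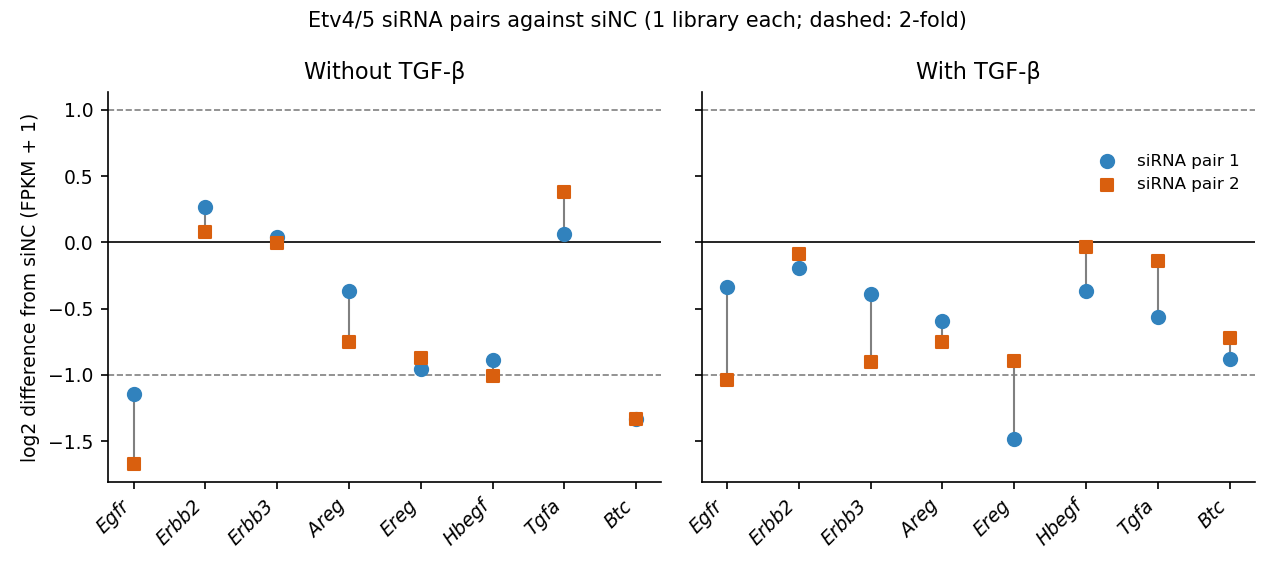
Log2 difference from siNC on the log2(FPKM + 1) scale for siRNA pair 1 (circles) and pair 2 (squares), 1 library each, without and with TGF-β, with dashed lines at 2-fold. Without TGF-β Egfr and Btc are below the lower line with both pairs, while Erbb3 is close to 0 and Erbb2 and Tgfa lie above it, and with TGF-β each member plotted is below 0.

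Within each siRNA condition, the level with TGF-β was set against that without. The ratio for Hbegf was 1.98 (interval 1.80 to 2.18) with siNC, 2.90 (2.59 to 3.25) with pair 1 and 4.00 (3.55 to 4.51) with pair 2, beside 3.75 in the untransfected cells. The ratio for Areg was 1.56 (1.33 to 1.83), 1.34 (1.12 to 1.59) and 1.58 (1.29 to 1.94), beside 2.59 in the untransfected cells. That for Egfr was 0.996 with siNC, 1.88 with pair 1 and 1.71 with pair 2. Tgfa was higher with TGF-β in the siNC condition, by a ratio of 1.12 (1.00 to 1.24), and lower with pair 1 (0.704, 0.630 to 0.786) and pair 2 (0.766, 0.693 to 0.848). For Erbb3 the ratios were 1.07 (0.877 to 1.32), 0.747 (0.604 to 0.922) and 0.487 (0.375 to 0.629). The differences between siRNA conditions, with 1 library each, were not tested.

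**Figure D5:**
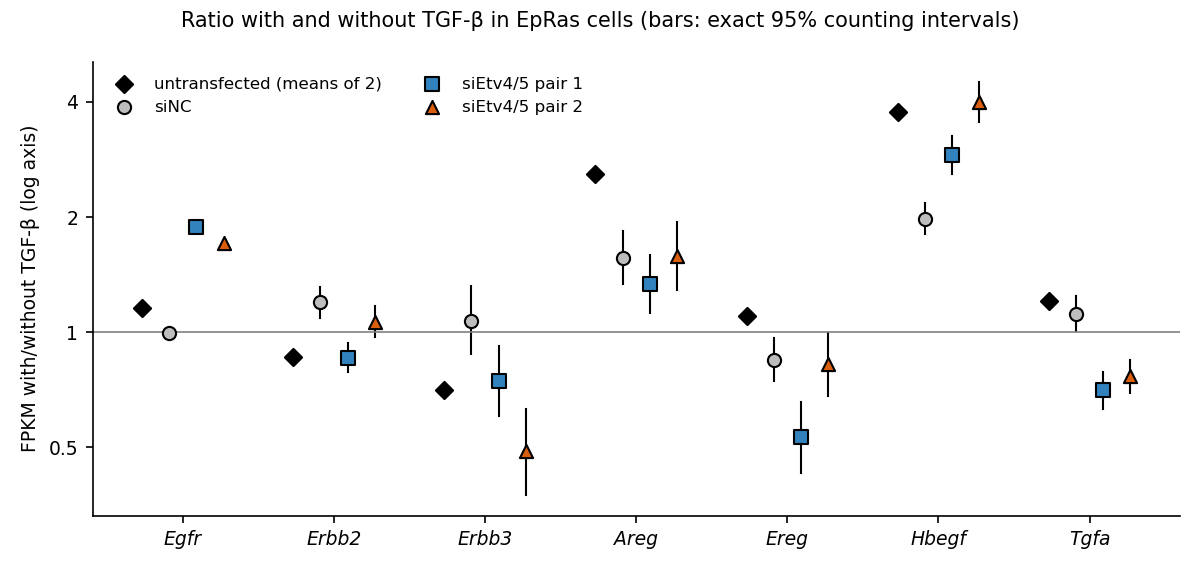
Ratio of FPKM with and without TGF-β (log axis) for the 7 members that reached 5 FPKM, in untransfected EpRas cells (diamonds, ratio of the means of 2 libraries) and in the 3 siRNA conditions (1 library each), with exact 95% counting intervals where reads were known. The ratio for Hbegf is above 1 in each condition, at 1.98 with siNC, 2.90 with pair 1 and 4.00 with pair 2.

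The control libraries of the siRNA series did not match the untransfected EpRas cells in the level of several members. Without TGF-β, Egfr was 12.4 FPKM with siNC beside 4.48 and 4.12 FPKM in the untransfected libraries, Ereg 13.4 beside 3.69 and 4.74 FPKM, Btc 3.02 beside 0.627 and 0.0562 FPKM, and Tgfa 18.01 beside 11.8 and 10.7 FPKM. Erbb2 was 18.5 beside 22.7 and 19.7 FPKM, and Hbegf was 35.4 beside 42.0 and 31.5 FPKM. With TGF-β Hbegf was 70.2 FPKM with siNC beside 119.7 and 156.6 FPKM. With the Etv4/5 siRNA pairs Egfr, at 5.08 and 3.21 FPKM, stood beside 4.48 and 4.12 FPKM in untransfected EpRas cells, and with TGF-β, at 9.57 and 5.49 FPKM, beside 4.94 and 5.01 FPKM. The 2 sets were processed and normalised separately, so no test sets them against each other, and transfection and batch cannot be told apart. Over 9512 genes the median log2 difference of siNC from untransfected EpRas cells without TGF-β was 0.05, with 4.95% of them at least 2-fold higher and 2.76% at least 2-fold lower in siNC.

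Targets of the pathway were read in the same way. Of the 15 target genes that reached 5 FPKM in the siRNA libraries, 2 were called lower without TGF-β and 2 with it (beside 2.49% of all 9094 genes in each condition), and 0 were called higher (beside 1.54 and 1.33%). Ier3, an immediate early gene of ERK signalling, had 536 FPKM under siNC, 164 under pair 1 and 176 under pair 2 without TGF-β, and 556, 231 and 234 FPKM with it. Ptgs2, the inducible cyclooxygenase, was 219.9, 75.5 and 45.8 FPKM without TGF-β, beside 59.3 and 58.7 FPKM in untransfected EpRas cells (normalised separately). Fos was 16.8, 3.61 and 7.54 FPKM with TGF-β, beside 3.77 and 4.59 FPKM in untransfected EpRas cells. In the lists of ligand shedding, adaptors, negative regulators and other ligands 0 genes were called in either condition.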

How the data were processed

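The authors purified poly(A) RNA, prepared directional libraries and sequenced them on the Ion Proton. According to the submitters' processing notes, reads were aligned to mm10 with TopHat2 2.0.11 and Bowtie2 2.2.2.2 and quantified with Cuffdiff of Cufflinks 2.2.0. Untransfected and siRNA-transfected samples were processed independently. The values deposited by the authors are FPKM per gene and library, in 1 table for each set, and every test stays within 1 of them. FPKM divides by the total of a library, so a rise of abundant genes lowers the others. Genes without an OK status (3 and 2) were left out.

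From these values, log2(FPKM + 1) was fitted with limma 3.58.1 in R 4.3.3, with 1 mean for each of the 4 untransfected groups, the spread taken from all 8 libraries and no block, for genes with a maximum of at least 5 FPKM. The Benjamini-Hochberg adjustment ran over these genes, with a threshold of 0.05. In simulated data for EpRas against EpH4 without TGF-β (9100 genes), 58 of 100 genes changed 2-fold, 94 of 100 changed 4-fold and 8 of 8900 unchanged genes were called. The simulation gave each gene the same normally distributed spread in all groups. In the data, the median SD between replicates on the log2 scale was 0.091 for EpH4 and 0.214 for EpRas cells with TGF-β. The simulated rates may therefore not hold for the data. For the siRNA libraries, each pair was compared with siNC as a log2 difference, without a test. Reads were recovered from the FPKM steps. Python 3.11.15, pandas 2.3.3 and scipy 1.17.1 were used for the other steps. Alternatives were another pseudocount (0.1 or 5 FPKM), no filter or 10 FPKM, the compared groups alone, a replicate block, a variance trend, rescaling to a median of 0 and leaving out each library. For siRNA, the same pseudocounts, a 1.5-fold limit, the mean of the pairs, rescaling and each pair alone were tried.

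The 10 members and the pathway lists were chosen with earlier results of these data known. The text names the 10 members, at most 4 called genes by size of change from each pathway list in each comparison or siRNA condition, the 3 genes most like the member of the largest range, and Etv4 and Etv5. It also names Adam10 and Adam17 as genes that were not called. Positions come from the deposited tables, promoters from RefSeq (GRCm38.p6).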

Additional observations from a re-analysis of the deposited data

Results flagged for a closer look

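For Areg both EpRas libraries were below both EpH4 libraries without TGF-β (log2 fold change -0.318, limma adjusted p = 0.236, not passed), and both were above with TGF-β (0.695, limma adjusted p = 0.0244). Such groups without overlap were found for 61.0 and 63.0% of all genes tested. The difference between these effects is the same quantity as the difference of the TGF-β effects, and it was tested: 1.01 on the log2 scale, with a limma adjusted p of 0.159 and the EpRas response the larger of the 2.

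For Tgfa, both siRNA pairs were above siNC without TGF-β (log2 differences 0.0637 and 0.377) and below it with TGF-β (-0.562 and -0.138). For Erbb2 the same held with smaller differences, 0.269 and 0.078 without and -0.191 and -0.0848 with TGF-β. Neither difference was tested, as each condition has 1 library and both pairs share their siNC library.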

How the results depend on the processing

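With 2 libraries per group, most limits come from single libraries. Over the 8 left-out libraries, the members called, Ereg and Erbb3 included (3, 6, 1, 2 and 0 of 7 in the 5 comparisons), ranged from 1 to 5 for the lines without TGF-β, 1 to 6 with TGF-β, 0 to 1 for TGF-β in EpH4 cells, and stayed at 2 in EpRas cells and 0 for the difference of the effects. Ereg and Erbb3 entered the test through 1 line, so between the lines their calls are descriptions, though these counts hold them. The upper ends of both ranges for the lines include them. With only the groups compared, 2 members were called for the lines with TGF-β, Hbegf and Ereg, and 0 for TGF-β in EpRas cells. In that fit, which has fewer samples, Egfr was lost for the lines without TGF-β (limma adjusted p = 0.0633). Under the other alternatives each count of members tested by limma stayed within 1.5 times its value, with single calls lost or gained. Erbb2 with TGF-β was lost with 0.1 FPKM added (limma adjusted p = 0.0531) and without a filter (0.0565). With 5 FPKM added, Egfr without TGF-β was lost (limma adjusted p = 0.0510), as was Erbb3 with TGF-β, a description only. Egfr with TGF-β passed without a filter (limma adjusted p = 0.0208). Signs turned only in values that were not called and only with a library left out: over the left-out libraries Egfr ranged from -0.021 to 0.043 and Erbb2 from -0.24 to 0.31 for TGF-β in EpH4 cells, Ereg from -0.047 to 0.28 for TGF-β in EpRas cells, and Erbb2 from -0.52 to 0.030 and Erbb3 from -0.42 to 0.12 for the difference of the effects. For siRNA without TGF-β, 0 members were called with 5 FPKM added and 3 at 1.5-fold in both pairs, and 1 to 2 with a single pair. With TGF-β, 2 were called at 1.5-fold in both pairs, 1 by the mean of the pairs and 1 with either single pair. The cause was not tested.

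The labels do not state that replicate numbers mark pairs. Correlations of the same-numbered replicate differences ran from -0.35 (untreated EpRas with TGF-β-treated EpRas cells) to 0.08. They do not settle whether libraries were paired under other numbers. With the replicate block, 2, 5, 1, 2 and 0 members were called in the 5 comparisons. The calls of Egfr without TGF-β (limma adjusted p = 0.0624) and Erbb2 with TGF-β (0.0684) were lost. The 5 for the lines with TGF-β include Ereg and Erbb3, which are descriptions there. With the numbers of the untreated EpRas libraries crossed, a setting chosen after seeing the data, 3, 6, 1, 2 and 0 members were called. The 6 again include Ereg and Erbb3.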
